A study of Mus musculus with 12 samples.

Results

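White adipose tissue from mice with an adipocyte-specific deletion of Xap5 was compared with white adipose tissue from wild-type mice at postnatal day 42. The study asked what Xap5 does for the development and death of fat cells. Xap5 is the alias of Fam50a, the symbol used in the count table. The deletion group (cKO) is labelled XAP5 KO and described as an Adiponectin-cKO, that is, a knockout driven from the adiponectin promoter, which is active in mature adipocytes. The other group is labelled WT, and whether its mice carried a floxed allele or Cre is not given in the sources used here. All 6 white fat libraries (3 cKO and 3 WT) of the 12 libraries in the series were used, chosen by their titles. The other 6 are from cultured adipocytes. The labels give neither the fat depot of the tissue samples nor the sex of the mice, and they do not say whether each library came from 1 mouse, so every p-value measures the spread between these samples. The day of harvest is the same in both groups, and the labels record no other treatment.

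Fam50a encodes a nuclear protein of the spliceosome, the machine that removes introns from pre-mRNA, and it is found in the late, catalytically active complexes. White fat stores triglyceride in large adipocytes, which turn glucose into fatty acids, release them on hormonal demand and secrete hormones such as adiponectin and leptin. The same tissue holds macrophages, fibroblast-like progenitors, vessels, nerves and lymphoid cells. Macrophages take up lipid and cell debris, and in inflamed fat they gather around dying adipocytes. RNA from whole tissue adds all of these cells together, so fewer cells of a type and less RNA per cell cannot be told apart in any value given here.

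The libraries held 28844370 to 30704234 gene counts in WT and 33132906 to 33997204 in cKO. Between 17582 and 17825 genes were detected in a WT library and between 18982 and 19416 in a cKO library. Values below are CPM, the usual depth-normalised counts, scaled by TMM and given in the order of replicates 1 to 3. Fam50a (chrX:74313033-74320149, GRCm38) read 35.3, 32.5 and 36.5 CPM in WT and 23.2, 16.7 and 28.8 CPM in cKO, without overlap (log2 fold change -0.60 ± 0.20 (SE), adjusted p = 0.0395). The difference was absent when the libraries were scaled by their totals alone (log2 fold change 0.089, adjusted p = 0.736). It did not pass the test once a trend with gene length and GC content, described below, was removed (log2 fold change -0.42, adjusted p = 0.128). Nor did it pass without any 1 of WT replicates 1, 2 and 3 or cKO replicate 1, where it was about as large (log2 fold change -0.65 to -0.56, adjusted p = 0.0756 to 0.108). The count covers the whole gene and all cells of the tissue, so reads from outside the deleted part and from cells without Cre are in it.

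The marker check matched the label of fat: 9 of 10 adipocyte markers were read in every library and fell in cKO, while Fabp4, a fatty acid carrier, did not pass the test (11457 to 12481 CPM in WT, 4163 to 9527 in cKO, adjusted p = 0.0684; 0.00268 without cKO replicate 2). Fabp4 was called lower by DESeq2 (log2 fold change -0.93, adjusted p = 0.00368), by limma voom (-0.95, adjusted p = 0.0340) and after removal of that trend (-1.66, adjusted p = 0.00913). With library totals alone 7 of the 10 adipocyte markers were lower, and 7 to 10 were when single libraries were left out. Without both WT replicate 3 and cKO replicate 1 the number was 4. The 10 markers summed to 28955 to 32453 CPM in WT and 7252 to 18042 CPM in cKO. The 10 pan-macrophage markers summed to 485 to 747 CPM in WT and 2195 to 4689.9 CPM in cKO, and 9 of them rose. The exception was Cd163, a scavenger receptor of resident macrophages, at 10.02, 3.25 and 8.55 CPM in WT and 7.18, 5.57 and 6.87 CPM in cKO (adjusted p = 0.771). In both sums cKO replicate 2 lay nearest to WT. The 4 tested genes of the Y chromosome were read in every library, so each held male tissue. They summed to 32.2 to 54.3 CPM in WT and 72.9 to 81.6 CPM in cKO. All 4 were higher with TMM, but after removal of that trend 0 were higher and 1 was lower.

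Tissue other than fat was uneven between libraries. Luminal epithelial markers, such as keratins 8 and 18 and casein kappa, summed to 1420.3 CPM in cKO replicate 3 and to 9.42 to 76.4 CPM in the other 5 libraries. Krt18 read 0, 0.393 and 222 CPM in the cKO libraries and 11.1, 3.84 and 0.702 CPM in WT. None of the 15 tested members of that list passed the edgeR test in either direction with all 6 libraries (2 at an unadjusted p under 0.05, 0 by DESeq2 and 0 by limma voom), and 5 were lower in cKO without cKO replicate 3. Without cKO replicate 1 or without cKO replicate 2, 2 were higher. Skeletal muscle markers summed to 2737 CPM in WT replicate 3 and 2004 CPM in cKO replicate 1, against 73.4 to 352 CPM in the other 4. The part of these tissues in the results below was not tested beyond the counts without those libraries.

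**Figure D1:**
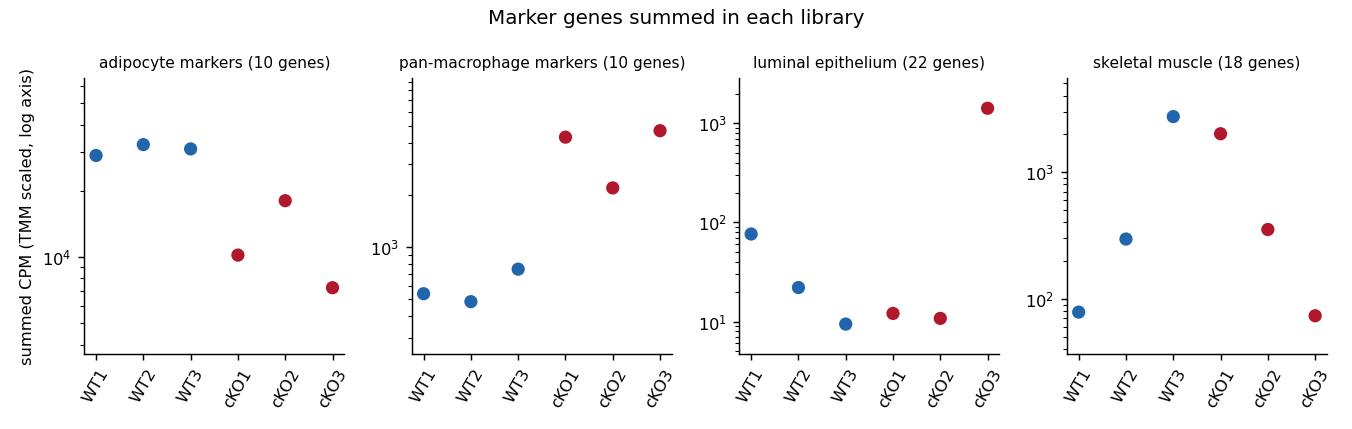
Summed CPM of 4 marker lists (log axis) in each of the 3 WT (blue) and 3 cKO (red) libraries. Adipocyte sums are lower and macrophage sums higher in every cKO library, cKO replicate 3 alone holds 1420.3 CPM of luminal epithelial markers, and muscle markers are highest in WT replicate 3 and cKO replicate 1.

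Of 16293 genes tested, 8542 (52.4%) differed between cKO and WT at an adjusted p under 0.05. Of all genes tested, 28.2% (4595) were higher and 24.2% (3947) lower. Among these calls 1310 rises and 537 falls were at least 4-fold, and 259 and 75 at least 16-fold. The direction of mild changes depended on the scaling. The 8 genes with the largest loss held 12.1 to 12.7% of WT counts and 1.09 to 2.04% of cKO counts. Over all genes the median log2 fold change was 0.12 with TMM and 0.80 with library totals alone, a shift of 0.68. With totals alone, 8838 genes were higher and 1427 lower.

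The fold change also moved with GC content and length. The quintile of genes with the lowest GC content had a median log2 fold change of 0.77, and 53.0% of them were higher in cKO. The quintile with the highest GC content had a median of -0.22, and 16.4% were higher. Medians rose from -0.29 in the quintile of shortest transcripts to 0.54 in that of the longest. What the trend comes from was not tested. After it was removed from each library, 2839 genes were higher and 4820 lower.

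**Figure D2:**
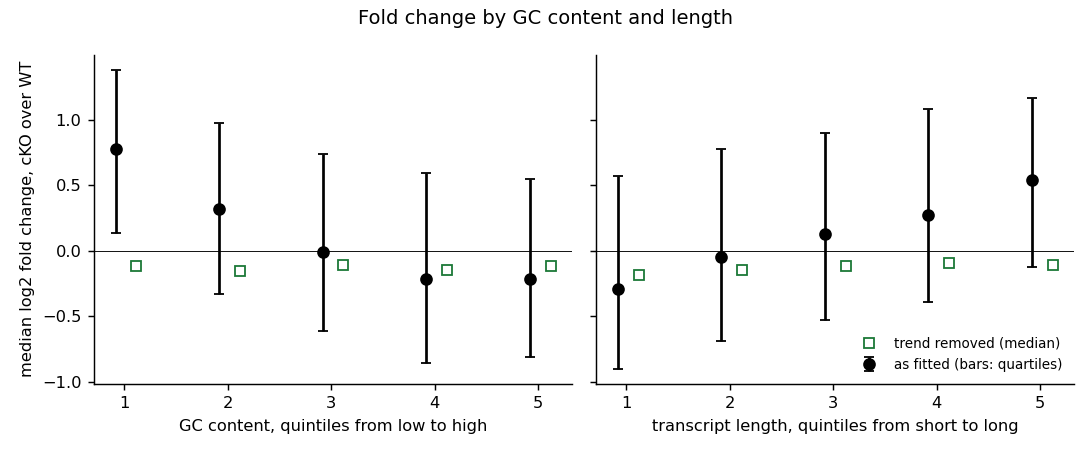
Median log2 fold change (cKO over WT) of genes in quintiles of GC content (left) and of transcript length (right); bars span the quartiles and open squares give the medians after the trend was removed. The median runs from 0.77 to -0.22 across GC content and is flat after removal.

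For this reason each count below is also given for calls that kept their direction and passed under 4 scalings: TMM, DESeq2's size factors, library totals alone, and TMM with the length and GC trend removed. Such calls are named scaling-robust here. They number 2625 higher (16.1% of genes tested) and 1427 lower (8.76%). Several lists below had shares near those of all genes tested, 28.2% higher and 24.2% lower. In 2002 of the 2625 rises and 1098 of the 1427 falls, cKO replicate 2 was the cKO library nearest to WT. It was the farthest from WT in 293 of the rises (11.2%). Groups that do not overlap were common, at 64.4% of genes tested. For every gene said below to have risen or fallen, the 3 cKO values lay wholly above or wholly below the 3 WT values, the call was scaling-robust, and it held when any 1 library was left out, except where stated. Where removal of the trend moved the log2 fold change of a called gene by over 1.5 times, the value after removal stands beside it as detrended. Totals alone raised log2 fold changes of single genes by about the shift of 0.68 given above.

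**Figure D3:**
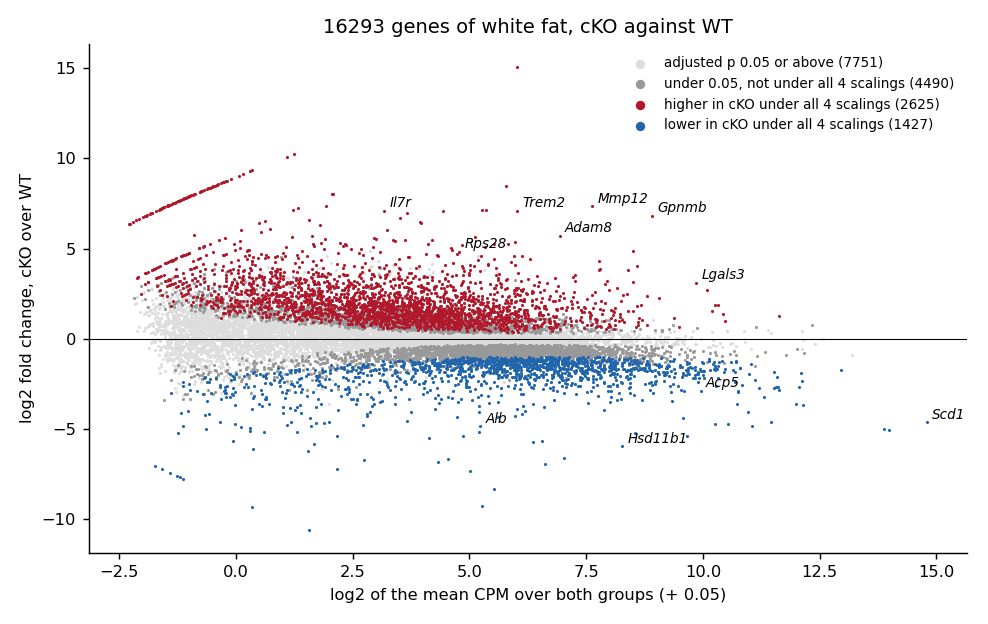
Log2 fold change (cKO over WT) of each gene tested against the log2 of its mean CPM. Red and blue points are the 2625 rises and 1427 falls found under all 4 scalings; the streaks at the left are genes with no or almost no read in 1 group, whose fold change depends on the prior count.

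**Figure D4:**
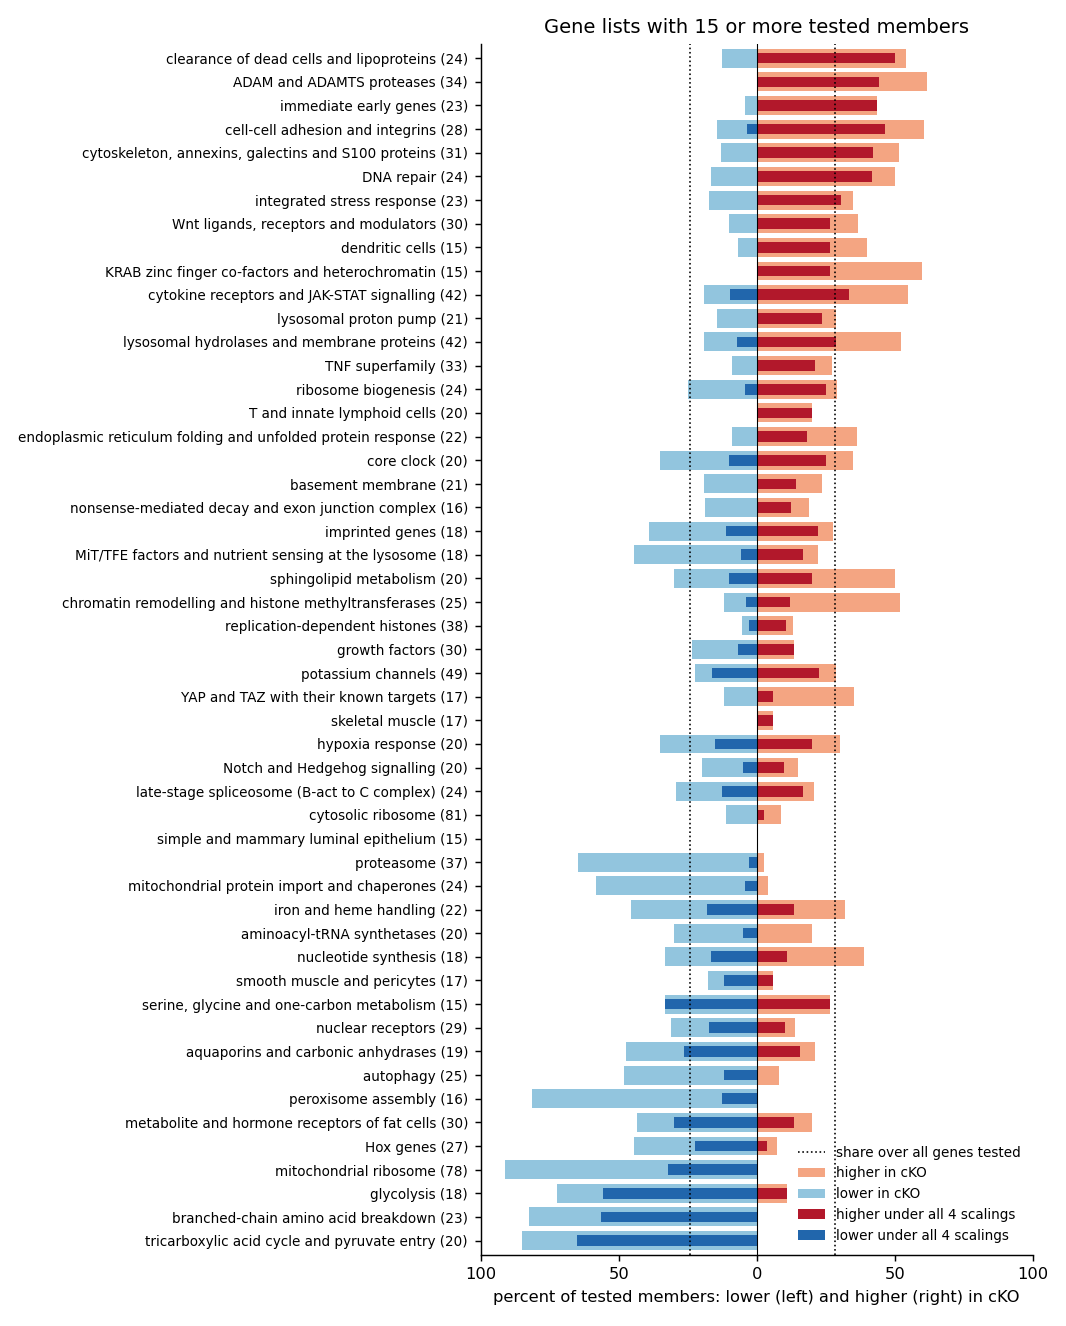
Share of tested members (number in brackets) that were lower (left) or higher (right) in cKO for each gene list with 15 or more tested members; dark bars are scaling-robust calls and dotted lines mark the shares over all genes tested, 24.2% lower and 28.2% higher. Carbon metabolism and mitochondrial lists lie at the bottom, clearance and ADAM protease lists at the top.

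Enzymes that turn glucose and amino acids into precursors for fat fell in most cases. In glycolysis 13 of 18 genes fell (10 scaling-robust), with a list median of -1.52. Eno1, the enolase, read 3246, 2969 and 3119 CPM in WT and 427, 716 and 439 CPM in cKO (log2 fold change -2.56 ± 0.26 (SE), adjusted p = 0.000644). Every cKO library lay far below every WT library. The exception with the largest rise was Hk3, a hexokinase of myeloid cells, at 3.88, 4.46 and 5.70 CPM in WT and 68.6, 28.1 and 63.9 CPM in cKO (log2 fold change 3.52 ± 0.37 (SE), adjusted p = 0.000717). The pentose phosphate pathway, which supplies the NADPH that fatty acid synthesis consumes, had 9 of 10 genes lower (6 scaling-robust). Its transketolase, Tkt, fell from 8333, 7944 and 9058 CPM to 513, 1066 and 423 CPM (log2 fold change -3.66 ± 0.41 (SE), adjusted p = 0.000805).

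The tricarboxylic acid cycle and pyruvate entry lost 17 of 20 genes and gained none (13 scaling-robust falls, list median -1.52). Pcx, pyruvate carboxylase, which refills the cycle as citrate leaves for fatty acid synthesis, read 4693, 4285 and 4803 CPM in WT and 339, 844 and 268 CPM in cKO (log2 fold change -3.25 ± 0.46 (SE), adjusted p = 0.00158). All 13 scaling-robust falls of this list were deepest in cKO replicate 3 and mildest in cKO replicate 2, the same order of libraries as the adipocyte marker sums. Of all 1427 scaling-robust falls, 64.3% were deepest in cKO replicate 3 and 76.9% mildest in cKO replicate 2. In branched-chain amino acid breakdown 19 of 23 genes fell and none rose, 13 of them scaling-robust. Ivd, isovaleryl-CoA dehydrogenase of leucine breakdown, went from 774, 900.0 and 783 CPM to 119, 204 and 100.4 CPM (log2 fold change -2.53 ± 0.28 (SE), adjusted p = 0.000811). Bckdk, the kinase that switches off the branched-chain ketoacid dehydrogenase, fell with the enzymes it restrains, from 274, 290.2 and 259 CPM to 68.9, 85.7 and 77.9 CPM (log2 fold change -1.82 ± 0.13 (SE), adjusted p = 0.000434).

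Glycogen genes fell in 10 of 13 cases (7 scaling-robust) and on both sides of the store. Pygl, a glycogen phosphorylase, read 888, 716 and 915 CPM in WT and 134, 257 and 92.9 CPM in cKO (log2 fold change -2.38 ± 0.37 (SE), adjusted p = 0.00220). Ppp1r3b, which directs a phosphatase to glycogen and promotes its synthesis, read 118, 117 and 148 CPM and 27.8, 21.0 and 22.9 CPM (log2 fold change -2.42 ± 0.17 (SE), adjusted p = 0.000413).

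One-carbon metabolism moved in both directions: 4 genes rose and 5 of 15 fell, all scaling-robust. These are 26.7% and 33.3%, beside 28.2% and 24.2% of all genes tested (16.1% and 8.76% scaling-robust). Phgdh, the first enzyme of serine synthesis, fell from 397, 484 and 482 CPM to 85.0, 134 and 90.3 CPM (log2 fold change -2.14 ± 0.21 (SE), adjusted p = 0.000633). The cytosolic folate enzyme Mthfd1 fell (-1.49 log2, adjusted p = 0.000486), while its mitochondrial counterparts rose, Mthfd2 by 1.33 (adjusted p = 0.00149) and Mthfd1l by 2.16 (adjusted p = 0.00220). Mthfd2 read 8.97, 7.34 and 10.9 CPM in WT and 24.4, 22.4 and 21.3 CPM in cKO, and the groups did not overlap.

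In nucleotide synthesis 7 of 18 genes were higher (2 scaling-robust) and 6 lower (3 scaling-robust). The higher count fell to 3 without WT replicate 1, WT replicate 3 or cKO replicate 1 and to 4 without cKO replicate 3. Both scaling-robust rises are enzymes of dividing cells, Tk1, thymidine kinase, at 2.18, 3.46 and 2.69 CPM in WT and 29.1, 15.7 and 37.5 CPM in cKO (log2 fold change 3.31 ± 0.36 (SE), adjusted p = 0.000788), and Rrm2, a ribonucleotide reductase subunit (log2 fold change 2.46 ± 0.33 (SE), adjusted p = 0.00138). Gart, of de novo purine synthesis, fell (log2 fold change -1.42 ± 0.13 (SE), adjusted p = 0.000585), as did Dhodh, of pyrimidine synthesis (log2 fold change -1.29 ± 0.14 (SE), adjusted p = 0.000747). DNA repair genes rose in 12 of 24 cases (10 scaling-robust, and no scaling-robust fall). Brca1, which acts in repair by homologous recombination in dividing cells, read 0.523, 0.584 and 0.702 CPM in WT and 8.45, 4.76 and 8.88 CPM in cKO (log2 fold change 3.60 ± 0.36 (SE), adjusted p = 0.000640).

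Genes that handle retinoids, sphingolipids and iron moved in both directions. Rbp4, the retinol carrier that fat secretes, fell from 753, 923 and 791 CPM to 93.1, 169.6 and 85.6 CPM (log2 fold change -2.82 ± 0.29 (SE), adjusted p = 0.000694), while Dhrs9, a retinol dehydrogenase, rose from 0.392, 0.292 and 0.124 CPM to 10.5, 9.09 and 8.79 CPM (log2 fold change 5.12 ± 0.41 (SE), adjusted p = 0.000486). Of 14 retinoid genes 4 rose, all scaling-robust, and 3 fell (2 scaling-robust). These are 28.6% and 21.4%, beside 28.2% and 24.2% of all genes tested. Of 20 sphingolipid genes 10 were higher and 6 lower (4 and 2 scaling-robust). Among them Ormdl3, a brake on sphingolipid synthesis, fell (log2 fold change -1.79 ± 0.30 (SE), adjusted p = 0.00278), and Cerk, which makes ceramide 1-phosphate, rose (log2 fold change 1.98 ± 0.24 (SE), adjusted p = 0.00101). Trf, transferrin, the iron carrier of plasma, fell from 5163, 5792 and 5851 CPM to 669, 849 and 791 CPM (log2 fold change -2.86 ± 0.21 (SE), adjusted p = 0.000434). Slc11a1, the iron exporter of macrophage phagosomes, rose from 11.02, 12.1 and 17.9 CPM to 157, 91.1 and 168 CPM (log2 fold change 3.34 ± 0.30 (SE), adjusted p = 0.000571), and so did Hmox1, which breaks down heme (log2 fold change 2.09 ± 0.21 (SE), adjusted p = 0.000633).

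Genes of the organelles behind these pathways were lower by smaller amounts. The mitochondrial ribosome, which translates the mitochondrial genome, had 71 of 78 subunits lower and none higher (list median -0.95), but 25 lower and 2 higher with library totals alone. Mrps24 was among the 25 scaling-robust falls, from 132, 118 and 118 CPM to 37.7, 45.3 and 33.7 CPM (log2 fold change -1.66 ± 0.15 (SE), adjusted p = 0.000548). Peroxisome assembly factors fell in 13 of 16 cases, 2 of them scaling-robust: Pex6, an ATPase that recycles the import receptor (log2 fold change -1.71 ± 0.16 (SE), adjusted p = 0.000585), and Pex11a, which divides peroxisomes (log2 fold change -1.56 ± 0.24 (SE), adjusted p = 0.00207). Proteasome subunits were lower in 24 of 37 cases with TMM (list median -0.63), while with library totals alone 10 were higher and 1 lower, so their direction rests on the scaling. The same held for mitochondrial protein import, with 14 of 24 lower with TMM, 1 with totals alone and 9 with TMM but without WT replicate 3. Autophagy genes were lower in 12 of 25 cases (3 scaling-robust, and 11 higher with totals alone). One scaling-robust fall was Map1lc3a, a coat protein of the autophagosome, from 459, 445 and 397 CPM to 104, 155 and 92.5 CPM (log2 fold change -1.89 ± 0.21 (SE), adjusted p = 0.000831).

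Lysosomal genes moved in both directions. Of 42 hydrolases and membrane proteins 22 were higher (12 scaling-robust; 14 without WT replicate 1) and 8 lower (3 scaling-robust). Ctss, cathepsin S of antigen-presenting cells, rose from 16.5, 19.9 and 36.3 CPM to 875, 422 and 809 CPM (log2 fold change 4.86 ± 0.43 (SE), adjusted p = 0.000565). Lipa, the acid lipase that frees cholesterol and fatty acids inside lysosomes, rose from 63.1, 54.1 and 58.6 CPM to 429, 217 and 421 CPM (log2 fold change 2.60 ± 0.27 (SE), adjusted p = 0.000720). For both genes the lowest cKO value was several times the highest WT value, and cKO replicate 2 was the lowest of the cKO libraries. Acp5, tartrate-resistant acid phosphatase, is an osteoclast and macrophage marker in other tissues, yet it fell from 1651, 1823 and 1754 CPM to 218, 333 and 164 CPM (log2 fold change -2.87 ± 0.28 (SE), adjusted p = 0.000633). Ctsf, cathepsin F, also fell (log2 fold change -1.38 ± 0.13 (SE), adjusted p = 0.000585). Every one of the 12 scaling-robust rises was mildest in cKO replicate 2, the cKO library with the lowest macrophage marker sum. The same held for 76.3% of all scaling-robust rises.

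The proton pump that acidifies lysosomes had 6 of 21 tested subunits higher (5 scaling-robust) and 3 lower (0 scaling-robust), with a list median of 0.045. These are 28.6% and 14.3%, beside 28.2% and 24.2% of all genes tested. Among its common subunits, Atp6v1a, the catalytic one, rose from 45.02, 31.5 and 42.2 CPM to 156, 112 and 142 CPM (log2 fold change 1.79 ± 0.19 (SE), adjusted p = 0.000742; detrended 1.18). Lysosomal genes are controlled by the MiT/TFE transcription factors. In a list of these factors and nutrient-sensing genes of the lysosome, 4 of 18 were higher (3 scaling-robust) and 8 lower (1 scaling-robust). These are 22.2% and 44.4%, beside 28.2% and 24.2% of all genes tested. With library totals alone 10 of that list were higher and 1 lower. Mitf rose from 3.44, 3.25 and 2.98 CPM to 23.1, 14.4 and 20.01 CPM (log2 fold change 2.57 ± 0.23 (SE), adjusted p = 0.000563), and Tfec, the member found mainly in macrophages, from 0.261, 0.417 and 0.413 CPM to 3.35, 1.65 and 4.88 CPM (log2 fold change 3.17 ± 0.53 (SE), adjusted p = 0.00277). Tfeb (log2 fold change 0.30, 95% interval -0.083 to 0.68) and Tfe3 (-0.043, 95% interval -0.33 to 0.25), named after their values were seen, did not pass the test. With library totals alone both passed as higher (log2 fold change 0.98, adjusted p = 0.00242, and 0.64, adjusted p = 0.00437). Tfeb also passed without cKO replicate 2 (log2 fold change 0.42, adjusted p = 0.0250) and once the trend was removed (0.48, adjusted p = 0.0218). Mtor, the kinase that holds these factors in the cytosol when nutrients are plentiful, fell (log2 fold change -1.44 ± 0.19 (SE), adjusted p = 0.00118).

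MiT/TFE factors bind an E-box with flanking bases, TCACGTGA, which reads the same on both strands and contains the shorter E-box CACGTG that clock factors also bind. RefSeq promoter windows of GRCm38.p6, the 250 bases before each gene's start, were matched by symbol for 11364 of the genes tested. TCACGTGA was found in 1.66% of them, in 4 of 33 matched lysosomal hydrolase and membrane protein genes (Ctsa, Ctsd, Gla and Mcoln1) and in 1 of 15 proton pump genes (Atp6v1a). CACGTG was found in 9.63% of all genes matched and in 11 of the 33 lysosomal ones. The longer motif was found in 2.05% of genes that were higher, 1.72% of those lower and 1.38% of those not past the test. The shares for CACGTG were similar among genes that were higher (9.09%), lower (9.93%) or not past the test (9.81%). The windows of the 4 genes with a single RefSeq start and the longer motif (in capitals) are shown because their transcripts moved in different directions:
Atp6v1a (chr16:44139260-44139509, minus strand): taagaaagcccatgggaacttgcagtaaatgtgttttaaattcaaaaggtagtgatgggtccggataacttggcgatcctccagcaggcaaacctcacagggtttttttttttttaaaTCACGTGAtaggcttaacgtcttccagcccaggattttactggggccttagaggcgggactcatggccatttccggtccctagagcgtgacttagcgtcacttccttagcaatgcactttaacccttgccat
Gla (chrX:134601006-134601255, minus strand): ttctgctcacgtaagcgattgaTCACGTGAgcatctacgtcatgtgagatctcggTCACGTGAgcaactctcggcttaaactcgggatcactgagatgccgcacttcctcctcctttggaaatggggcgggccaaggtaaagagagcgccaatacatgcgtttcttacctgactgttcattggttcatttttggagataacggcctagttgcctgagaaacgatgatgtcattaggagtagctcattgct
Mcoln1 (chr8:3500269-3500518, plus strand): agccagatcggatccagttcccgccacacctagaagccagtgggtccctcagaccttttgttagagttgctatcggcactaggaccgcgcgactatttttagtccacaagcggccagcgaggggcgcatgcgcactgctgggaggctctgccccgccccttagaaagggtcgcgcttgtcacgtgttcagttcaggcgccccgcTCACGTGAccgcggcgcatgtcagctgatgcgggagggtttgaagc
Ctsd (chr7:142387828-142388077, minus strand): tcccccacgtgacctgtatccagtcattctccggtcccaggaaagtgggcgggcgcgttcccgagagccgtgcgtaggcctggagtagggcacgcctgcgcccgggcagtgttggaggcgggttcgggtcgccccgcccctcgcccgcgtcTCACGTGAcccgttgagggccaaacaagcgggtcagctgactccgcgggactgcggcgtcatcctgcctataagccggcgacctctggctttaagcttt
Atp6v1a and Gla, the lysosomal alpha-galactosidase with 2 copies of the motif, rose. Gla, named for its motif, read 7.88, 8.59 and 9.34 CPM in WT and 55.2, 28.7 and 47.6 CPM in cKO (log2 fold change 2.35 ± 0.25 (SE), adjusted p = 0.000736). Mcoln1, a lysosomal calcium channel, was lower, at 61.2, 62.6 and 63.1 CPM in WT and 34.3, 36.0 and 34.7 CPM in cKO (log2 fold change -0.83 ± 0.10 (SE), adjusted p = 0.00105), but its adjusted p was 0.228 with library totals alone. Ctsd, cathepsin D, also named for its motif, did not pass the test (5169, 5371 and 5432 CPM in WT, 3842, 3000.3 and 4095 CPM in cKO, adjusted p = 0.0705), although the groups did not overlap. Its adjusted p was 0.0164 without cKO replicate 2, 0.000578 by DESeq2 and 0.0388 by limma voom. A match of letters is a description and no evidence that a factor binds there.

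**Figure D5:**
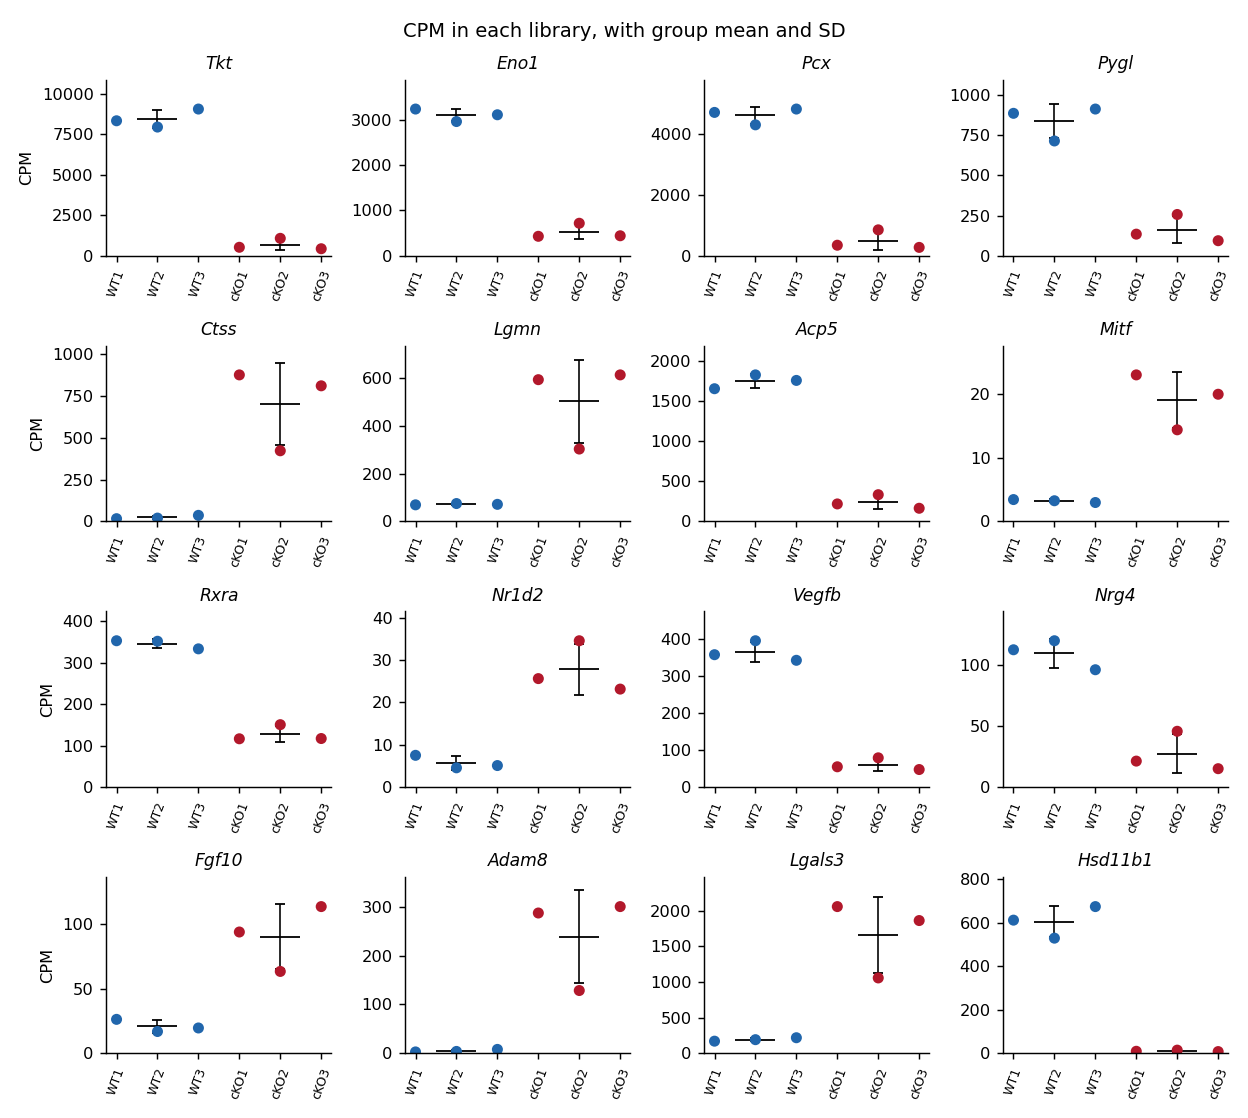
CPM of 16 genes in each WT (blue) and cKO (red) library, with the group mean and SD in black. In each panel the groups are apart, and for most genes cKO replicate 2 lies nearest to WT.

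The integrated stress response, in which phosphorylation of eIF2 alpha slows translation and raises ATF4 and its targets, had 8 of 23 genes higher (7 scaling-robust). The 4 lower genes were not scaling-robust, and their number was 0 to 7 when single libraries were left out. Of the 7 scaling-robust rises 5 were highest in cKO replicate 2, the library with the most adipocyte marker reads among the cKO libraries. Ddit3, encoding CHOP, read 18.9, 27.9 and 20.2 CPM in WT and 90.9, 118 and 62.0 CPM in cKO (log2 fold change 2.01 ± 0.27 (SE), adjusted p = 0.00129). Trib3, a CHOP target, read 14.5, 28.4 and 13.9 CPM and 93.6, 144 and 45.01 CPM (log2 fold change 2.32 ± 0.47 (SE), adjusted p = 0.00566). Both were named after their values were seen. Atf3 kept the more common order, from 5.36, 8.72 and 6.78 CPM in WT to 172, 94.9 and 181 CPM in cKO (log2 fold change 4.43 ± 0.32 (SE), adjusted p = 0.000434). Asns and Chac1, other ATF4 targets, were lower instead (-1.05, adjusted p = 0.0209, and -1.74, adjusted p = 0.0257), but neither call was scaling-robust: with totals alone their adjusted p was 0.262 and 0.0978. Each was also lost when some single libraries were left out, reaching adjusted p = 0.0749 for Asns without WT replicate 2 (log2 fold change -0.98) and 0.0746 for Chac1 without cKO replicate 1 (-1.71). Chac1 also missed the threshold once the trend was removed (adjusted p = 0.0503).

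Among genes of protein folding in the endoplasmic reticulum 8 of 22 were higher (4 scaling-robust; 4 without cKO replicate 1, and 5 without WT replicate 2 or 3). Hsp90b1, a chaperone, rose from 123, 78.2 and 109 CPM to 284, 260.2 and 303 CPM (log2 fold change 1.45 ± 0.19 (SE), adjusted p = 0.00118; detrended 0.73). All 4 scaling-robust rises of that list were mildest in cKO replicate 2, as were 76.3% of all scaling-robust rises. Immediate early genes, transcription factors that respond within minutes to growth and stress signals, were higher in 10 of 23 cases, all scaling-robust, and in 6 without cKO replicate 1. Fos read 5.44, 2.54 and 2.44 CPM in WT and 48.3, 22.3 and 55.8 CPM in cKO (log2 fold change 3.60 ± 0.46 (SE), adjusted p = 0.00116). Of 20 hypoxia genes 6 were higher (4 scaling-robust) and 7 lower (3 scaling-robust). These are 30% and 35%, beside 28.2% and 24.2% of all genes tested. Ero1a, a hypoxia-induced oxidase that supplies disulfide bonds, rose from 20.2, 16.8 and 19.7 CPM to 97.3, 139 and 53.9 CPM (log2 fold change 2.36 ± 0.33 (SE), adjusted p = 0.00149; detrended 1.48), highest in cKO replicate 2. Hif1a, the oxygen-regulated factor, rose (log2 fold change 1.55 ± 0.19 (SE), adjusted p = 0.00104; detrended 0.64), and its targets Egln1 (log2 fold change -1.32 ± 0.12 (SE), adjusted p = 0.000585) and Pdk1 (log2 fold change -1.91 ± 0.12 (SE), adjusted p = 0.000413) fell. Cryab, a small heat shock protein, fell from 287, 329.9 and 274 CPM to 94.3, 119 and 78.3 CPM (log2 fold change -1.61 ± 0.18 (SE), adjusted p = 0.000834), whereas Hspa1b, the inducible Hsp70, rose (log2 fold change 2.30 ± 0.41 (SE), adjusted p = 0.00360).

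The circadian clock genes moved in both directions. The clock is driven by ARNTL with CLOCK or NPAS2, which activate genes through E-boxes, and it is restrained by the REV-ERB nuclear receptors. Of 20 clock genes 7 were higher (5 scaling-robust) and 7 lower (2 scaling-robust). These are 35% each, beside 28.2% higher and 24.2% lower of all genes tested. Among the REV-ERB pair, Nr1d2 rose from 7.53, 4.59 and 5.12 CPM to 25.6, 34.5 and 23.1 CPM (log2 fold change 2.27 ± 0.25 (SE), adjusted p = 0.000808; detrended 1.41), and Nr1d1 was lower, at 143, 247 and 104 CPM in WT and 49.0, 92.01 and 40.3 CPM in cKO (log2 fold change -1.45 ± 0.41 (SE), adjusted p = 0.0206), a call lost with totals alone (adjusted p = 0.115) and without WT replicate 2 or cKO replicate 1 (adjusted p = 0.0765 and 0.0683). The difference between the pair was not tested. The output factor Dbp rose from 5.53, 8.72 and 4.21 CPM to 26.1, 24.6 and 16.1 CPM (log2 fold change 1.86 ± 0.32 (SE), adjusted p = 0.00306). The period genes Per2 (log2 fold change 1.07 ± 0.26 (SE), adjusted p = 0.0123) and Per3 (log2 fold change 1.1105 ± 0.29 (SE), adjusted p = 0.0148), named after their values were seen, rose as well. Arntl itself did not pass (log2 fold change -0.18, 95% interval -0.56 to 0.20), but was higher with library totals alone (0.50, adjusted p = 0.0316) and lower once the length and GC trend was taken out (-0.46, adjusted p = 0.0449).

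Ciart, a repressor of the clock, was nearly unread in WT (0.0871, 0 and 0.165 CPM) and read 2.28, 1.79 and 0.904 CPM in cKO (log2 fold change 4.24 ± 0.85 (SE), adjusted p = 0.00554). Of 17 clock genes with a RefSeq window 5 held a CACGTG (Bhlhe41, Ciart, Cry1, Per1 and Tef). The window of Ciart is shown because it held 3 of them, in capitals, 110, 52 and 38 bases before the start:
Ciart (chr3:95882229-95882478, minus strand): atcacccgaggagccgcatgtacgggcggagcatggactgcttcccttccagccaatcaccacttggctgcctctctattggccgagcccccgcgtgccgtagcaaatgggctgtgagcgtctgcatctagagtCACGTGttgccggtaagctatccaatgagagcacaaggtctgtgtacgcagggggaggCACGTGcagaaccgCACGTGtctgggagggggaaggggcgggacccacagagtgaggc
Transcripts of the clock change over the day, and the hour of harvest of either group is not given in the sources used here.

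Among 29 nuclear receptors 9 were lower (5 scaling-robust) and 4 higher (3 scaling-robust). That is 31.0% lower and 13.8% higher, beside 24.2% and 28.2% of all genes tested. Rxra, the partner of PPAR gamma, fell from 353, 352 and 333 CPM to 117, 151 and 117 CPM (log2 fold change -1.43 ± 0.15 (SE), adjusted p = 0.000661), and Esrra, a driver of mitochondrial genes, fell (log2 fold change -1.03 ± 0.12 (SE), adjusted p = 0.000950). Nr2f2, encoding COUP-TFII, which is known from progenitors and vessels, rose (log2 fold change 1.23 ± 0.21 (SE), adjusted p = 0.00304; detrended 0.68). Homeobox genes, which record the position of a depot along the body, were lower in 12 of 27 cases with TMM (6 scaling-robust) and evenly split with totals alone, 6 higher and 6 lower. Hoxc10, an inguinal-depot gene, read 43.5, 43.9 and 44.8 CPM in WT and 20.2, 20.7 and 20.3 CPM in cKO (log2 fold change -1.11 ± 0.10 (SE), adjusted p = 0.000604), and Hoxa7 fell too (log2 fold change -1.63 ± 0.20 (SE), adjusted p = 0.00101). Of 18 imprinted genes 5 were higher (4 scaling-robust) and 7 lower (2 scaling-robust). These are 27.8% and 38.9%, beside 28.2% and 24.2% of all genes tested. Log2 fold changes in that list ran from -4.08 to 3.38. Plagl1 (log2 fold change 1.70 ± 0.25 (SE), adjusted p = 0.00189), Peg10 (log2 fold change 1.88 ± 0.30 (SE), adjusted p = 0.00240) and Zim1 (log2 fold change 3.38 ± 0.49 (SE), adjusted p = 0.00171) were among those that rose.

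The RNA machinery that Fam50a belongs to moved in both directions. Of 24 tested components of the late spliceosome 5 rose (4 scaling-robust) and 7 fell (3 scaling-robust). These are 20.8% and 29.2%, beside 28.2% and 24.2% of all genes tested. The core factor Prpf8 fell from 296, 314 and 319 CPM to 141, 166 and 149.9 CPM (log2 fold change -1.02 ± 0.12 (SE), adjusted p = 0.000955), with Snrnp200, its helicase partner (log2 fold change -1.10 ± 0.12 (SE), adjusted p = 0.000767), and Prpf19 (log2 fold change -1.11 ± 0.13 (SE), adjusted p = 0.000894). Crnkl1 (log2 fold change 1.504 ± 0.23 (SE), adjusted p = 0.00196; detrended 0.99) and the second-step factor Slu7 (log2 fold change 0.81 ± 0.13 (SE), adjusted p = 0.00224; detrended 0.36) rose. Nonsense-mediated decay removes transcripts with premature stop codons such as those left by faulty splicing. Of its 16 tested genes 3 were higher (2 scaling-robust) and 3 lower (0 scaling-robust), 18.8% each and below the shares of all genes tested. The kinase of this decay, Smg1, rose (log2 fold change 1.42 ± 0.18 (SE), adjusted p = 0.00116; detrended 0.60). The counts are per gene, so splicing itself was not measured.

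Of 24 genes of the nucleolus and ribosome biogenesis 7 were higher (6 scaling-robust) and 6 lower (1 scaling-robust), with a list median of -0.072. These are 29.2% and 25%, beside 28.2% and 24.2% of all genes tested (16.1% and 8.76% scaling-robust). Npm1, nucleophosmin, read 30.0, 20.4 and 24.4 CPM in WT and 99.3, 84.8 and 120.2 CPM in cKO (log2 fold change 2.03 ± 0.20 (SE), adjusted p = 0.000632), and Ncl, nucleolin, rose too (log2 fold change 1.36 ± 0.13 (SE), adjusted p = 0.000605; detrended 0.39). Among 81 proteins of the cytosolic ribosome 7 were higher and 9 lower with TMM, 58 higher and 0 lower with library totals alone. Without cKO replicate 1 the TMM counts were 2 higher and 3 lower. The row of Rps28 showed the largest difference of that list, 1.92, 2.88 and 0.744 CPM in WT and 56.5, 40.3 and 61.9 CPM in cKO (log2 fold change 4.84 ± 0.45 (SE), adjusted p = 0.000604). The table also holds 3 numbered copies of Rps28, which share reads with it. With the copies added, the 6 libraries held 2683, 1979 and 2328 reads in WT and 4879, 3939 and 2918 in cKO, and the log2 fold change was -0.091 (adjusted p = 0.755). The rise in the row of Rps28 was thus not present in the sum over its copies.

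Calls among chromatin genes depended on the length and GC trend. Remodellers and histone methyltransferases were higher in 13 of 25 cases with TMM, and after the trend was removed 3 were higher and 5 lower. Zinc finger genes named Zfp behaved alike: 147 of 354 were higher with TMM (median 0.67), 29 after removal of the trend, when 35 were lower. With TMM but without WT replicate 2, WT replicate 3 or cKO replicate 1, 89, 84 and 82 Zfp genes were higher. Dnmt3a, a de novo DNA methyltransferase, rose under all 4 scalings, from 22.6, 19.1 and 19.3 CPM to 119, 79.3 and 118 CPM (log2 fold change 2.38 ± 0.19 (SE), adjusted p = 0.000486). Smarcd3, a subunit of the SWI/SNF remodeller, fell (log2 fold change -1.13 ± 0.14 (SE), adjusted p = 0.000994).

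Growth factors moved in both directions. Of 30 growth factor genes 4 rose, all scaling-robust, and 7 were lower (2 scaling-robust; 3 without WT replicate 1, WT replicate 2 or cKO replicate 1, and 4 without WT replicate 3). These are 13.3% and 23.3%, beside 28.2% and 24.2% of all genes tested. The 2 scaling-robust falls were Vegfb, a ligand of endothelial VEGFR1, from 359, 396 and 344 CPM to 55.5, 79.7 and 48.0 CPM (log2 fold change -2.58 ± 0.21 (SE), adjusted p = 0.000490), and Nrg4, an epidermal-growth-factor-like hormone of fat, from 113, 120.2 and 96.4 CPM to 21.5, 45.9 and 15.3 CPM (log2 fold change -1.99 ± 0.39 (SE), adjusted p = 0.00496). Fgf10, made by stromal cells, rose from 26.1, 16.7 and 19.5 CPM to 93.7, 63.2 and 113 CPM (log2 fold change 2.12 ± 0.26 (SE), adjusted p = 0.00103; detrended 1.28), and its relative Fgf7 rose from a low level (log2 fold change 3.34 ± 0.53 (SE), adjusted p = 0.00239).

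Receptors through which fat cells sense hormones and metabolites fell in 13 of 30 cases (9 scaling-robust) and rose in 6 (4 scaling-robust). Ptger3, the prostaglandin E receptor that restrains lipolysis, fell from 139.6, 130.2 and 158 CPM to 17.2, 28.3 and 20.1 CPM (log2 fold change -2.70 ± 0.21 (SE), adjusted p = 0.000474). Egfr rose (log2 fold change 1.45 ± 0.23 (SE), adjusted p = 0.00231; detrended 0.60). Hsd11b1, which regenerates active glucocorticoid inside cells and was in none of the lists, fell from 612, 529 and 675 CPM to 8.52, 13.8 and 7.14 CPM (log2 fold change -5.95 ± 0.31 (SE), adjusted p = 0.000267; chr1:193221640-193264045).

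Wnt ligands, receptors and modulators were higher in 11 of 30 cases (8 scaling-robust; 6 without WT replicate 2 or cKO replicate 1, and 7 without WT replicate 3). Fzd2, a Wnt receptor, read 3.96, 3.13 and 2.73 CPM in WT and 10.99, 8.62 and 16.4 CPM in cKO (log2 fold change 1.87 ± 0.30 (SE), adjusted p = 0.00246), and the secreted Wnt inhibitors Sfrp2 (log2 fold change 1.73 ± 0.31 (SE), adjusted p = 0.00375) and Sfrp4 (log2 fold change 1.64 ± 0.31 (SE), adjusted p = 0.00421; detrended 1.02) rose with it. Of 20 Notch and Hedgehog genes 3 were higher (2 scaling-robust) and 4 lower (1 scaling-robust). These are 15% and 20%, beside 28.2% and 24.2% of all genes tested. The higher count was 5 without WT replicate 1, and 1 without WT replicate 3, cKO replicate 1 or cKO replicate 3. Rbpj, the DNA-binding factor of Notch signalling, rose from 32.7, 29.3 and 36.1 CPM to 112, 75.3 and 117 CPM (log2 fold change 1.63 ± 0.19 (SE), adjusted p = 0.000922; detrended 0.84). Cytokine receptors and JAK-STAT genes were higher in 23 of 42 cases (14 scaling-robust), and 8 were lower (4 scaling-robust). Csf2ra, a GM-CSF receptor chain of myeloid cells, rose (log2 fold change 2.83 ± 0.29 (SE), adjusted p = 0.000656). Il17rc, a receptor of interleukin 17, fell from 101, 117 and 107 CPM to 26.6, 31.9 and 30.5 CPM (log2 fold change -1.87 ± 0.13 (SE), adjusted p = 0.000413), and so did Ifnar2, of the type I interferon receptor (log2 fold change -1.19 ± 0.14 (SE), adjusted p = 0.000905), and Il34, a ligand of the macrophage receptor CSF1R (log2 fold change -1.43 ± 0.18 (SE), adjusted p = 0.00114).

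In the TNF superfamily 9 of 33 genes were higher (7 scaling-robust; 5 without cKO replicate 1) and 3 lower, none of these scaling-robust. These are 27.3% and 9.09%, beside 28.2% and 24.2% of all genes tested. Tnfrsf11a, which encodes RANK, the receptor that drives osteoclast formation, rose from 0.914, 1.08 and 2.11 CPM to 26.2, 9.72 and 26.7 CPM (log2 fold change 3.93 ± 0.51 (SE), adjusted p = 0.00120). Dcstamp, needed for fusion of macrophages into giant cells and osteoclasts, rose from 0.174, 0.334 and 0.496 CPM to 13.3, 6.43 and 12.03 CPM (log2 fold change 4.96 ± 0.48 (SE), adjusted p = 0.000621). In the osteoclast and giant cell list as a whole 8 of 14 rose (7 scaling-robust) and Acp5, above, fell.

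Receptors for dead cells and lipoproteins had 12 scaling-robust rises among 24 tested and no scaling-robust fall. Mertk, which binds dying cells through bridging proteins, rose from 7.49, 6.42 and 6.28 CPM to 25.6, 26.6 and 23.9 CPM (log2 fold change 1.92 ± 0.15 (SE), adjusted p = 0.000476), and Abcg1, which exports cholesterol, from 21.6, 25.5 and 22.7 CPM to 151, 98.7 and 171 CPM (log2 fold change 2.59 ± 0.22 (SE), adjusted p = 0.000527). Mfge8, a bridging protein that adipocytes also make, was lower (log2 fold change -0.95 ± 0.22 (SE), adjusted p = 0.00964), a call that did not hold with library totals alone (adjusted p = 0.339). Monocyte genes rose in 9 of 12 cases (7 scaling-robust). Ccr2, the chemokine receptor that brings monocytes into tissue, read 3.18, 2.88 and 4.13 CPM in WT and 29.7, 20.3 and 29.1 CPM in cKO (log2 fold change 2.96 ± 0.24 (SE), adjusted p = 0.000486; detrended 1.81). The scaling-robust exception was Hp, haptoglobin, which fat itself secretes, and it fell from 2768, 2313 and 2951 CPM to 705, 1388 and 496 CPM (log2 fold change -1.63 ± 0.38 (SE), adjusted p = 0.00998).

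Few lymphoid markers passed the test. Of 12 cytotoxic and natural killer cell genes none passed the edgeR test in either direction (1 at an unadjusted p under 0.05, 0 by DESeq2, 1 by limma voom). Among 20 T and innate lymphoid genes 4 rose, 2 without WT replicate 1. Il7r, the interleukin 7 receptor, rose from 0.174, 0 and 0.207 CPM to 23.2, 10.1 and 19.9 CPM (log2 fold change 7.09 ± 0.70 (SE), adjusted p = 0.000633), and Il1rl1, the interleukin 33 receptor, also rose (log2 fold change 3.302 ± 0.41 (SE), adjusted p = 0.00106). Lck, a kinase of T cell receptor signalling, read 8.84, 7.63 and 12.7 CPM in WT and 11.3, 6.70 and 7.55 CPM in cKO, and its adjusted p was 0.600. Of 11 B and plasma cell genes 2 rose, Cd22 (log2 fold change 4.49 ± 0.45 (SE), adjusted p = 0.000633) and Cd79b (log2 fold change 1.53 ± 0.39 (SE), adjusted p = 0.0135). Their levels stayed low in all libraries, at most 18.4 CPM for Cd22 and 6.40 CPM for Cd79b.

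Proteases of the ADAM and ADAMTS families, which cut surface proteins and matrix, rose in 21 of 34 cases and fell in none (15 scaling-robust; list median 1.25). Adam8, of myeloid cells, rose from 2.48, 3.504 and 7.64 CPM to 288, 129 and 301 CPM (log2 fold change 5.72 ± 0.55 (SE), adjusted p = 0.000628). Adam17, which sheds TNF and EGF receptor ligands, rose from 22.1, 21.1 and 22.1 CPM to 58.7, 46.0 and 60.2 CPM (log2 fold change 1.34 ± 0.14 (SE), adjusted p = 0.000697; detrended 0.74), and Adamts12 rose (log2 fold change 1.996 ± 0.23 (SE), adjusted p = 0.000872). Cytoskeletal, annexin, galectin and S100 genes rose in 16 of 31 cases (13 scaling-robust). Lgals3, galectin 3, read 168, 189 and 216 CPM in WT and 2057, 1055 and 1861 CPM in cKO (log2 fold change 3.12 ± 0.29 (SE), adjusted p = 0.000598). All 13 scaling-robust rises of that list were mildest in cKO replicate 2, beside 76.3% of all scaling-robust rises. Of 28 adhesion genes 17 rose (13 scaling-robust). Cd44, a receptor for hyaluronan, rose from 17.1, 16.02 and 27.6 CPM to 249, 117 and 258 CPM (log2 fold change 3.36 ± 0.37 (SE), adjusted p = 0.000788), and Cdh11, a cadherin of fibroblasts, from 1.57, 0.751 and 0.702 CPM to 18.3, 11.7 and 22.1 CPM (log2 fold change 4.11 ± 0.41 (SE), adjusted p = 0.000644). Itga7, a laminin receptor, was the 1 scaling-robust fall (log2 fold change -1.66 ± 0.27 (SE), adjusted p = 0.00243).

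Caveolae, the plasma membrane pits that are abundant in fat cells, had 2 scaling-robust falls among 9 tested genes, the membrane-shaping proteins Ehd2 (log2 fold change -1.25 ± 0.23 (SE), adjusted p = 0.00420) and Pacsin3 (log2 fold change -1.26 ± 0.14 (SE), adjusted p = 0.000788). The coat gene Cav1 did not pass the test, at 1617, 1957 and 2095 CPM in WT and 1279, 2022 and 1042 CPM in cKO (adjusted p = 0.273), with cKO replicate 2 inside the WT range. Without that replicate Cav1 was lower (log2 fold change -0.72, adjusted p = 0.0115), as it was once the trend was removed (log2 fold change -1.04, adjusted p = 0.0188). Of 49 potassium channels 14 were higher (11 scaling-robust; 7 without WT replicate 2) and 11 lower (8 scaling-robust). These are 28.6% and 22.4%, beside 28.2% and 24.2% of all genes tested (16.1% and 8.76% scaling-robust). Kcnk3, a leak channel that limits thermogenesis in fat cells, fell from 345, 293 and 285 CPM to 47.9, 113 and 34.1 CPM (log2 fold change -2.24 ± 0.43 (SE), adjusted p = 0.00460), and Kcnn4, a calcium-gated channel of activated immune cells, rose from 2.92, 3.42 and 4.46 CPM to 76.1, 29.4 and 76.7 CPM (log2 fold change 4.08 ± 0.41 (SE), adjusted p = 0.000652). The proteoglycan Cspg4 and the adhesion molecule Mcam, which mark pericytes, fell (log2 fold change -2.53 ± 0.40 (SE), adjusted p = 0.00233, and log2 fold change -1.82 ± 0.30 (SE), adjusted p = 0.00268), while most smooth muscle and pericyte genes (13 of 17) did not pass the test. In that list 3 were lower (2 scaling-robust) and 1 higher (scaling-robust), with a median of 0.23. The higher count was 4 without WT replicate 3 and 0 without WT replicate 1, WT replicate 2 or cKO replicate 3. With library totals alone 13 were higher and 2 lower.

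Genes best known from liver were read in WT fat and moved in both directions. Alb, albumin, fell from 53.8, 86.7 and 76.1 CPM to 1.69, 3.71 and 2.102 CPM (log2 fold change -4.85 ± 0.35 (SE), adjusted p = 0.000434), and Orm1, an acute phase protein, from 436, 496 and 478 CPM to 44.1, 83.8 and 23.9 CPM (log2 fold change -3.21 ± 0.43 (SE), adjusted p = 0.00137). In that list 7 of 13 were lower (5 scaling-robust; 4 without WT replicate 2) and 2 higher (1 scaling-robust; 1 without WT replicate 1, cKO replicate 1 or cKO replicate 2). The higher members were Mup3 and Mup18, which encode major urinary proteins, and neither passed by limma voom (adjusted p = 0.0937 and 0.154). Mup7 of the same family, which was in no list and was named after its values were seen, rose from 1.18, 2.29 and 5.37 CPM to 48.9, 286 and 32.0 CPM (log2 fold change 5.37 ± 1.04 (SE), adjusted p = 0.00488), and was highest in cKO replicate 2. Major urinary protein genes are near-identical copies of one another, so reads could be split or shared among them.

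Only some of the largest rises outside the lists are given here. These genes were low or absent in WT and rose in all 3 cKO libraries. Rnf128, a ubiquitin ligase, read 0.174, 0.334 and 0.0826 CPM in WT and 33.4, 12.6 and 28.7 CPM in cKO (log2 fold change 6.96 ± 0.58 (SE), adjusted p = 0.000498). Rgs1, which damps chemokine receptor signals (log2 fold change 6.48 ± 0.46 (SE), adjusted p = 0.000425), and F7, coagulation factor VII (log2 fold change 6.45 ± 0.53 (SE), adjusted p = 0.000490), rose as well. So did Tlr13, a sensor of bacterial ribosomal RNA (log2 fold change 5.50 ± 0.38 (SE), adjusted p = 0.000413), and Hpgds, the hematopoietic prostaglandin D synthase (log2 fold change 5.48 ± 0.51 (SE), adjusted p = 0.000604). The largest falls included Rims4 (47.2, 46.8 and 43.9 CPM in WT, 0.333, 0.712 and 0.294 CPM in cKO; log2 fold change -6.68 ± 0.33 (SE), adjusted p = 0.000231), Fn3k, a kinase that reverses protein glycation (log2 fold change -5.49 ± 0.38 (SE), adjusted p = 0.000425), Eci3, an isomerase of unsaturated fatty acid oxidation (log2 fold change -5.41 ± 0.21 (SE), adjusted p = 0.000110), and the sorting receptor gene Sorcs2 (log2 fold change -5.15 ± 0.36 (SE), adjusted p = 0.000413). In total 92 genes had no read in any WT library and at least 10 reads in every cKO library, 59 of them named genes, and 8 showed the reverse. Setdb2, a putative histone methyltransferase (chr14:59402009-59440880), had 113, 217 and 197 reads in cKO and none in WT, so it was at least 98.4-fold higher, taking 3 reads over the group as the floor. Chrnb4, a nicotinic receptor subunit, had 67, 73 and 33 reads in WT and none in cKO, at least 103-fold lower by the same floor.

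Some genes had a narrow interval around 0. Of 3718 named genes with a mean of at least 50 CPM, 452 had a 95% interval of the log2 fold change within 0.5 of 0. The narrowest were Safb, a nuclear matrix protein (63.2, 66.3 and 64.7 CPM in WT, 64.3, 65.6 and 65.4 CPM in cKO, interval -0.23 to 0.25), and the kinase gene Stk24 (72.3 to 74.6 CPM in WT, 71.5 to 76.3 in cKO, interval -0.23 to 0.25). With library totals alone the log2 fold change of Safb was 0.69 and that of Stk24 0.69, close to the shift of the median of all genes. By symbol family, among those with 20 or more tested members, the share rising was highest for GTPase-activating proteins (Arhgap, 20 of 32), C-type lectins (Clec, 13 of 21), RNA-binding motif proteins (Rbm, 19 of 35, 12 without cKO replicate 1), Trim (25 of 48), Cdk (13 of 25) and kinesins (Kif, 17 of 33). Of these, the scaling-robust rises were 16 of Arhgap, 10 of Clec, 17 of Trim, 10 of Kif, and 6 each of Rbm and Cdk. The share was lowest, at 0, for Cox (20 of 25 lower), Mrpl (45 of 49), Mrps (26 of 29) and Nudt (13 of 20), followed by Rps (3 of 43 rising) and Polr (2 of 28, 1 when any library but WT replicate 1 was left out). The scaling-robust falls were 10 of Cox, 13 of Mrpl, 12 of Mrps and 7 of Nudt. The low shares of Rps and Polr rest on the scaling, since with library totals alone 29 and 12 of them were higher and 1 and 2 lower. The high shares of Rbm and Cdk were not kept once the length and GC trend was removed. After that, 6 of Rbm were higher and 8 lower, and 6 of Cdk were higher and 6 lower.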

How the data were processed

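White fat of 3 cKO and 3 WT mice or mouse pools was profiled by RNA-seq. Per the labels' protocols, RNA was extracted with TRIzol and libraries were made with an mRNA kit for MGI sequencers. Per the submitters' processing notes, FastQC 0.11.2, cutadapt 1.11, HISAT2 2.1.0 and GRCm38 were used. No counting tool or strand setting is given in the sources used here. The authors deposited raw counts per gene for 26639 features, which include 3137 unnamed loci and 1618 numbered copies of a symbol. Reads of genes with near-identical copies may be split among rows.

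Counts were filtered with filterByExpr (minimum count 10), scaled with TMM and tested for cKO against WT with edgeR 4.0.16 (quasi-likelihood test, Benjamini-Hochberg adjusted p under 0.05) in R 4.3.3. All adjusted p-values above are from that test unless another tool is named, and cover all 16293 genes tested. Standard errors were computed from the F statistic. On simulated counts with 200 of 16293 genes changed, the test recovered 0% of 1.5-fold, 26.9% of 2-fold and 74.2% of 4-fold changes. There, 11.8% of its 76 calls were false, more than the threshold aims for. In the data far more genes, 8542, were called, so these shares need not hold for the comparison of cKO and WT. How they carry over was not tested. The common coefficient of variation was 0.319, so differences of low-count genes carry wide errors. Length and GC content came from GENCODE transcripts and covered 92.3% of genes tested. DESeq2 1.42.0 and limma 3.58.1 voom, other filters and scalings, the replicate number as a block, and leaving out each library were alternatives. Library pairs of a group differed by far more than sampling noise, so no library was a duplicate.

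Gene lists and members were chosen with earlier results of these data known. Named genes were, per list, the most abundant member and the 3 called members with the smallest p in each direction, plus all marker-check genes, the 8 largest gains and losses in CPM, the 12 largest fold changes each way outside the lists, the 6 most abundant genes unread in 1 group, the 8 most variable genes in cKO and the 6 narrowest intervals around 0. Per family, the 6 highest and 6 lowest shares rising were named. Some genes named by these rules are not reported here. 29 listed members, mostly noncoding, had no row.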

Additional observations from a re-analysis of the deposited data

How the results depend on the processing

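The scaling moved the split between higher and lower genes, and a test against a 2-fold change lowered both counts. Against 4595 higher and 3947 lower genes, library totals alone gave 8838 and 1427, removal of the length and GC trend 2839 and 4820, and a test against a 2-fold change 1286 and 814 (2100 in all). Leaving out 1 library gave 3382 to 4375 higher, 3074 to 4220 lower and 6456 to 8595 changed genes. With WT replicate 3 and cKO replicate 1 both left out, an alternative chosen after seeing the data, 1948 genes were higher and 1764 lower (3712 in all), of which 1898 and 1738 kept their call. The other filters, DESeq2, limma voom, summed copies and the table without unnamed loci kept each count within 1.5 times.

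Fam50a had a log2 fold change of 0.089 with library totals alone, -0.42 with the trend removed, -0.81 to -0.44 without single libraries and -0.57 without both libraries named above. Of the other 145 genes named, 130 kept direction and call with library totals alone and 138 with the trend removed. Genes not past the test changed sign: with totals alone Arntl was at 0.50, Cav1 at 0.29, Cd163 at 0.53, Ctsd at 0.14, Lck at 0.49 and Tfe3 at 0.64. Rps28 was at -0.091 with its copies summed. Krt18 was at -2.13 with the replicate block, -1.48 with limma voom and -4.71 without cKO replicate 3. Cd163 was at 0.00040 with limma voom. Safb and Stk24 were at -0.044 and -0.044 with DESeq2's size factors, and the same with DESeq2. When single libraries were left out, values ran from -0.51 to 0.15 for Cd163, -0.46 to 0.047 for Lck, -0.018 to 0.025 for Safb, -0.027 to 0.019 for Stk24, -0.11 to 0.0090 for Tfe3 and -4.71 to 5.02 for Krt18. The cause of these shifts was not tested.

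The replicate numbers did not pair the libraries: deviations of same-numbered libraries correlated at -0.33, 0.027 and -0.23, and only the libraries numbered 2 correlated best with each other. With the number as a replicate block 3771 genes were higher and 3487 lower, 7258 in all, with Fam50a at -0.63, and of the other genes named Ctsa lost its call (adjusted p = 0.0677).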
